A study of Mus musculus with 16 samples.

Results

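The subject here is 10 genes of the circadian clock in mouse liver: *Arntl*, *Clock*, *Npas2*, *Per1*, *Per2*, *Per3*, *Cry1*, *Nr1d1*, *Nr1d2* and *Dbp*. They were taken by symbol, with earlier results of these data known, and each matched 1 of the 53801 gene IDs in the deposited read counts. All 10 passed the filter on low counts. Their levels varied between livers of the same group more than those of most genes. In the main fit, over genes past that filter in all 16 livers, none passed the test between genotypes or diets. *Clock* and *Per3* passed between diets in knockouts under some other settings, given below. With no filter on low counts, clock genes also passed between genotypes on each diet, between diets in each genotype and in the interaction.

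*Arntl* encodes BMAL1, a transcription factor that pairs with CLOCK or its relative NPAS2, binds E-box DNA and switches on the *Per*, *Cry*, *Nr1d1*, *Nr1d2* and *Dbp* genes. PER and CRY proteins then block that pair, and the nuclear receptors NR1D1 and NR1D2 (REV-ERB alpha and beta) repress *Arntl*, *Clock* and *Npas2* through RORE elements. In mouse liver the transcripts of *Arntl* and *Npas2* are known to be high at the time of day when those of *Dbp* and *Nr1d2* are low, and feeding time can shift this rhythm. The sources used here give no time of day, feeding state or lighting for the livers.

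The series holds RNA-seq read counts from 16 mouse livers in 4 groups of 4. On normal chow and on a high-fat diet alike, 1 group is of control mice and 1 of mice with *Degs1* knocked out in the liver. They are called chow and high-fat controls and knockouts below. DEGS1 turns dihydroceramide into ceramide by adding a double bond. The sources used here do not give strain, age, sex, length of feeding, the control genotype or the Cre line behind the knockout. Livers are numbered 1 to 4 within each group, and nothing ties a number in one group to the same number in another.

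Total counts ran from 11938596 to 23250885 per liver, so that 3 counts correspond to between 0.135 and 0.293 CPM, the count scaled to a common library size. On chow *Degs1* stood at 80.4 to 87.9 CPM in controls and 35.9 to 39.3 CPM in knockouts, and on the high-fat diet at 60.2 to 101 and 26.1 to 41.6 CPM. The labels and the gene thus go together, though *Degs1* reads remained in every knockout liver. Summed over 7 hepatocyte marker genes, the level was 57210 to 138000 CPM in the 16 livers. The 6 fat and pancreas markers together were at most 11.05 CPM, in high-fat knockout 4, and *Prss1* was at 0 in every liver. High-fat control 3 stood apart in *Malat1*, a nuclear RNA, with 179.6 CPM where the other 3 of its group had 1021 to 4028 CPM. Each group's animal numbers form a range of their own, so any order of handling that followed them cannot be told apart from the groups. In whole liver, fewer cells of a type and less RNA per cell cannot be told apart.

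The sequences below show the clock elements that were found next to these genes in RefSeq's mouse assembly GRCm38.p6. Windows from 250 bases before to 50 bases after an annotated start were searched on both strands for CACGTG (the E-box bound by BMAL1 with CLOCK or NPAS2), TTANGTAA (a D-box, bound by DBP and its relatives) and TAGGTNA (the core of a RORE). Windows were found for 9 of the 10 genes, 13 windows in all. Of 32851 windows over all genes, 7.15% held the E-box, 2.32% the D-box and 8.29% the RORE core. Among the 9 genes, the E-box lay in the windows of 2, the D-box in that of 1 and the RORE core in that of 1. The percentages count windows, and some of the genes have more than 1 window. A match is a run of letters only, and genes without one may carry the element outside the window. The stretch shown for *Per3*, at chr4:151044666-151044915 on the minus strand, ends at the base before the start and held 2 D-box matches, here in capitals.
Per3: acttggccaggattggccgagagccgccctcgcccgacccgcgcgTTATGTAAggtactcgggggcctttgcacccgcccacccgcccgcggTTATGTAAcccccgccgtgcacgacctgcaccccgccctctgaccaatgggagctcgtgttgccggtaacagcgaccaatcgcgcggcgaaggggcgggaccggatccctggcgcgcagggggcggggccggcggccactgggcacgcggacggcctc
The *Per1* stretch with an E-box match ends before one of its 2 annotated starts, at chr11:69098699-69098947 on the plus strand, and that of *Cry1* lies at chr10:85185065-85185304 on the minus strand. *Ciart*, a repressor of the clock described further below, held 3 E-box matches, at chr3:95882252-95882478 on the minus strand. It belongs to a list of further clock components, of which 14 had a window and 4 held the E-box, and it had the most matches among them. Capitals mark CACGTG.
Per1: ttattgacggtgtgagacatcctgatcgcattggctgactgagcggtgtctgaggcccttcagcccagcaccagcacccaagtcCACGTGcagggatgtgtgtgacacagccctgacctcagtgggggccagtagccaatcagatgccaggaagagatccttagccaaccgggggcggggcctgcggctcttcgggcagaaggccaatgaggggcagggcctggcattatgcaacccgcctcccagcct
Cry1: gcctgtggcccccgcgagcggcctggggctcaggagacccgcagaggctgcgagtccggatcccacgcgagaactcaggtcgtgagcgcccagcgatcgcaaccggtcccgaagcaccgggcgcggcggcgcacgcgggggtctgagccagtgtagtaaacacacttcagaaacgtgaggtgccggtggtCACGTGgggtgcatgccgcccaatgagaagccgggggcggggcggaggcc
Ciart: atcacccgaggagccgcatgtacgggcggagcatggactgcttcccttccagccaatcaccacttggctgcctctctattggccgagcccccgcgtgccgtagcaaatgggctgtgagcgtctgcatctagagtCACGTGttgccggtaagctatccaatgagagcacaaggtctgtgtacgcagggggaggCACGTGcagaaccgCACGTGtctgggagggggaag
*Arntl* held RORE core matches at its start, which are shown in capitals with 10 bases on either side, at chr7:113207495-113207521 and chr7:113207531-113207557 on the plus strand.
Arntl first site: ggtcggaaagTAGGTTAgtggtgcgac
Arntl second site: aggcagaaagTAGGTCAgggacggagg

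*Arntl*, the core activator (ENSMUSG00000055116, chromosome 7, 113207465 to 113314126, plus strand, GRCm38), had 33.9, 5.71, 4.47 and 5.05 CPM in chow controls 1 to 4 and 3.51, 11.6, 21.0 and 10.7 CPM in chow knockouts 1 to 4. On the high-fat diet it had 18.7, 9.94, 6.02 and 14.9 CPM in controls 1 to 4 and 9.05, 17.8, 9.49 and 9.92 CPM in knockouts 1 to 4. Chow control 1 was the highest of the 16 livers and chow knockout 1 the lowest, 9.65-fold apart, and all 4 groups overlapped. The group means were 12.3 ± 14.4, 11.7 ± 7.19, 12.4 ± 5.54 and 11.6 ± 4.17 CPM (SD, n = 4 each) in the same order, closer to each other than livers of any one group.

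*Clock*, the partner of BMAL1 (ENSMUSG00000029238, chromosome 5, 76209868 to 76304792, minus strand), varied least between livers of one group. Its level was 107.5, 74.8, 52.7 and 75.1 CPM in the chow controls and 95.01, 117.6, 122.3 and 102.2 CPM in the chow knockouts. High-fat controls had 100.7, 88.1, 38.3 and 104.4 CPM, and high-fat knockouts 75.7, 77.2, 70.9 and 70.4 CPM. The high-fat knockouts lay close together and below every chow knockout, and the low value among the controls belongs to high-fat control 3. *Npas2*, which can take the place of CLOCK (ENSMUSG00000026077, chromosome 1, 39193731 to 39363236, plus strand), had few reads, between 1 and 62 counts per liver. It stood at 3.04, 0.457, 0.0514 and 0.812 CPM in the controls and 0.488, 0.77, 3.75 and 1.57 CPM in the knockouts on chow. The values on the high-fat diet were 2.04, 0.828, 0.609 and 1.5 CPM in controls against 1.3, 2.31, 0.533 and 1.33 CPM in knockouts. Its highest liver in each group was also the highest for *Arntl*, and the value in chow control 3 is a single count.

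Of the repressors that act on BMAL1 and CLOCK, *Per1* (ENSMUSG00000020893, chromosome 11, 69095217 to 69109960, plus strand) had 8.02, 29.0, 5.91 and 7.98 CPM in chow controls and 29.1, 28.9, 17.8 and 25.3 CPM in chow knockouts. In the high-fat groups it had 24.4, 14.5, 10.4 and 5.05 CPM in controls and 14.1, 11.4, 17.8 and 23.3 CPM in knockouts. On chow, 3 of 4 controls lay below every knockout and chow control 2 lay at the level of the highest knockouts. *Per2* (ENSMUSG00000055866, chromosome 1, 91415982 to 91459324, minus strand) had 5.88, 18.4, 25.1 and 18.5 CPM in chow controls, and the chow knockouts had 17.7, 12.97, 5.74 and 8.67 CPM. With the high-fat diet it had 27.5, 35.0, 11.6 and 12.4 CPM in controls and 18.5, 14.5, 20.7 and 26.1 CPM in knockouts. Its lowest values were in chow control 1 and chow knockout 3, the chow livers highest in *Arntl*.

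*Per3* (ENSMUSG00000028957, chromosome 4, 151003652 to 151044665, minus strand) covered a 23.4-fold range. It had 2.01, 8.38, 36.0 and 26.2 CPM in chow controls and 22.04, 5.51, 3.14 and 6.42 CPM in chow knockouts. On the high-fat diet the controls had 11.8, 30.5, 7.65 and 7.55 CPM and the knockouts 19.2, 16.7, 35.1 and 47.0 CPM. The high-fat knockouts were above 3 of 4 chow knockouts, and chow knockout 1 lay among them. *Cry1*, the cryptochrome (ENSMUSG00000020038, chromosome 10, 85131700 to 85185064, minus strand), had 13.4, 6.40, 11.04 and 3.38 CPM in the controls and 3.80, 6.93, 8.46 and 4.78 CPM in the knockouts on chow. The values on the high-fat diet were 9.22, 9.49, 6.36 and 13.3 CPM in controls against 6.08, 7.46, 5.44 and 5.33 CPM in knockouts. Controls and knockouts overlapped on both diets, by high-fat control 3 on the high-fat diet.

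The receptors that repress *Arntl* did not vary alike. *Nr1d1* (ENSMUSG00000020889, chromosome 11, 98767932 to 98775333, minus strand) had 34.9, 31.2, 23.8 and 48.9 CPM in chow controls, and the chow knockouts had 118.7, 49.7, 23.9 and 31.6 CPM. With the high-fat diet it had 29.0, 49.4, 21.6 and 10.05 CPM in controls and 37.5, 69.3, 86.0 and 48.7 CPM in knockouts. Chow knockout 1 was the highest of all livers, 11.8-fold above high-fat control 4. *Nr1d2* (ENSMUSG00000021775, chromosome 14, 18204054 to 18239127, minus strand) had 59.8, 90.4, 130 and 145.8 CPM in chow controls and 146.3, 94.2, 79.9 and 88.0 CPM in chow knockouts. On the high-fat diet the controls had 64.2, 100.1, 167 and 74.4 CPM and the knockouts 70.7, 67.8, 94.1 and 107.2 CPM. Its whole range was 2.79-fold.

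*Dbp*, a transcription factor driven directly by BMAL1 and CLOCK (ENSMUSG00000059824, chromosome 7, 45705088 to 45710203, plus strand), had the widest range of the genes other than *Npas2*, 26.5-fold. It stood at 4.01, 32.9, 106.5 and 100.8 CPM in chow controls and at 99.9, 16.6, 6.52 and 16.3 CPM in chow knockouts. High-fat controls had 12.8, 47.5, 63.4 and 13.95 CPM and high-fat knockouts 30, 22.3, 54.3 and 58.7 CPM. Chow control 1, the liver highest in *Arntl*, was the lowest in *Dbp*, and chow knockout 1 stood far above the other chow knockouts. The exons of *Dbp* overlap those of *Sphk2* on the opposite strand by 539 bases, 18% of their length, and those of *Nr1d1* overlap *Thra* by 263 bases, 8.55%. The sources used here do not say whether strand was used in counting, so reads in those stretches cannot be assigned to one gene with certainty. *Sphk2* ran only from 27.1 to 50.9 CPM and *Thra* from 7.96 to 15.98 CPM over the livers.

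**Figure D1:**
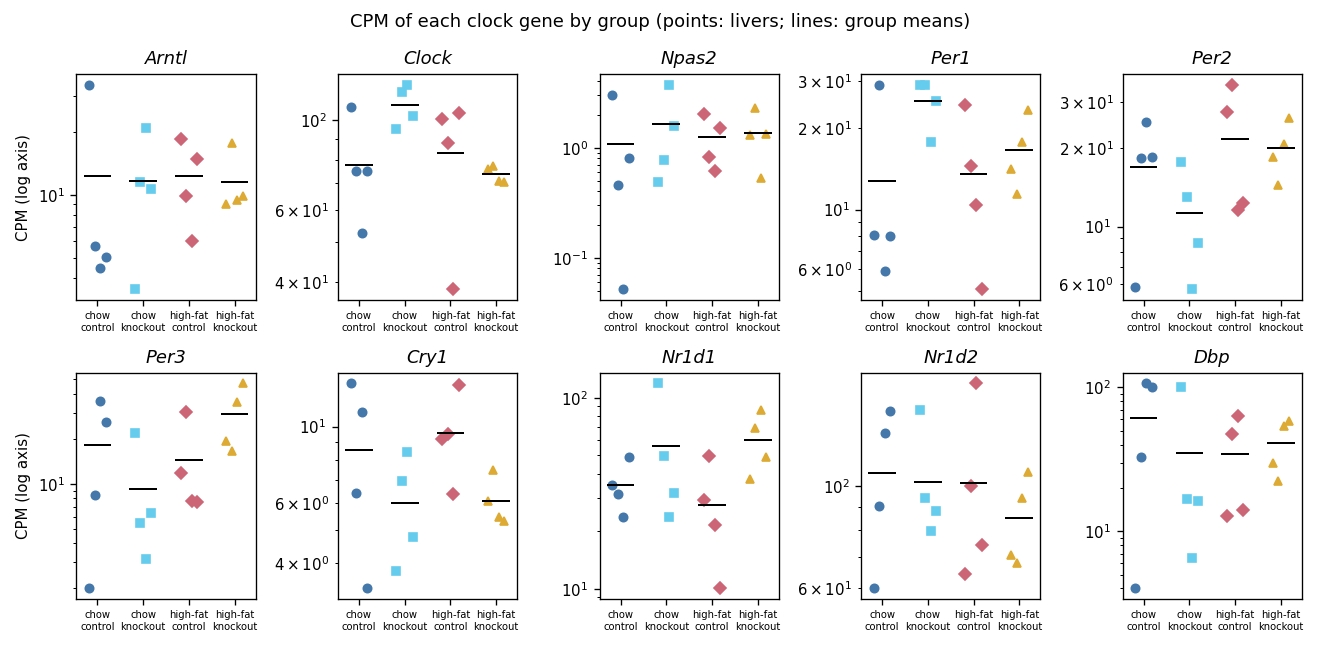
CPM of each clock gene (vertical log axis) in the 4 groups, with 1 point per liver and a line at each group mean. On chow the livers of *Dbp*, *Per3* and *Arntl* spread widely within both groups, and the only pair of diet or genotype groups with no overlap is *Clock* in the knockouts, at 70.4 to 77.2 CPM on the high-fat diet and 95.01 to 122.3 CPM on chow.

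Divided by exon length, the mean levels over 16 livers were 18.3 CPM per kb for *Nr1d2*, 14.5 for *Nr1d1*, 14.3 for *Dbp*, 6.25 for *Clock*, 3.03 for *Per1*, 2.98 for *Per2*, 2.26 for *Cry1*, 1.86 for *Per3*, 1.59 for *Arntl* and 0.279 for *Npas2*. In this order each gene's range over the livers overlapped that of the next.

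The spread between livers of one group was taken as the pooled within-group SD of log2 CPM. It was 1.54 for *Dbp*, 1.38 for *Npas2*, 1.26 for *Per3*, 0.97 for *Arntl*, 0.78 for *Nr1d1*, 0.75 for *Per1*, 0.73 for *Per2*, 0.57 for *Cry1*, 0.49 for *Nr1d2* and 0.41 for *Clock*. Over all 14351 genes tested the median was 0.334, and 10 of 10 clock genes were above it. *Dbp*, *Npas2*, *Per3* and *Arntl* were above the 90th percentile of 0.958. At its mean of 22.1 counts, counting error alone would give *Npas2* an SD of 0.307, and more in livers with fewer counts. Without high-fat control 3, 9 of 10 stayed above the median, *Clock* being the gene that no longer did. These values are a description with no test, since the genes were proposed with their variation between livers in view.

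**Figure D2:**
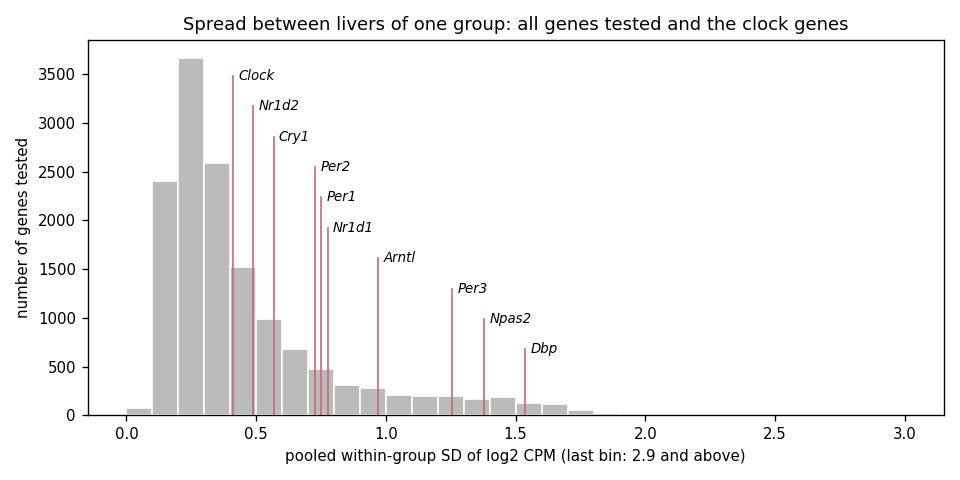
Histogram of the pooled within-group SD of log2 CPM (horizontal axis) over the 14351 genes tested, as numbers of genes per bin, with a line for each clock gene. *Clock*, at 0.41, is nearest the median of 0.334 and *Dbp*, at 1.54, is farthest to the right.

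The spread of the clock genes was not equal in the 4 groups. Their median SD of log2 CPM was 0.97 in controls and 0.857 in knockouts on chow, and 0.788 and 0.449 on the high-fat diet. The median over all genes tested was 0.275, 0.298, 0.385 and 0.202 in the same groups, so that the high-fat knockouts were also the most uniform group over all genes. Whether the groups differ in spread was not tested.

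Several of the genes varied together with *Arntl* from liver to liver. Across 16 livers the log2 CPM of *Dbp* was correlated with that of *Arntl* at Pearson r = -0.907 (permutation p = 1e-05, the smallest that 100000 permutations can give, adjusted p = 9e-05) and Spearman rho = -0.912. *Nr1d2* had r = -0.847 (permutation p = 4e-05, adjusted p = 0.00018) and rho = -0.782 (p = 0.00054). *Npas2* had r = 0.81 (permutation p = 0.00014, adjusted p = 0.00042) and rho = 0.879. Livers high in *Arntl* were thus high in *Npas2* and low in *Dbp* and *Nr1d2*. These 3 relations passed the threshold in each of the 16 fits that leave out 1 liver, with r of -0.927 to -0.87, -0.886 to -0.82 and 0.786 to 0.866. They also held without the livers farthest from the median of *Arntl*, chow control 1 and chow knockout 1, at r = -0.855, -0.787 and 0.824. The genes were proposed with their variation between livers in view. The p-values of these and the other relations with *Arntl* are therefore no independent support that the genes vary together.

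A further 3 genes passed with less certainty among the 9 relations, adjusted together. *Clock* had r = 0.567 (permutation p = 0.0211, adjusted p = 0.0317) and rho = 0.703, and without the 2 livers farthest from the median r = 0.705. *Cry1* had r = 0.601 (permutation p = 0.014, adjusted p = 0.0306) and rho = 0.565, and *Per3* r = -0.59 (p = 0.017, adjusted p = 0.0306) and rho = -0.618. Without chow control 1 and chow knockout 1 the latter pair fell out, at r = 0.363 (adjusted p = 0.305) for *Cry1* and -0.417 (adjusted p = 0.247) for *Per3*. Those livers are the extremes of *Arntl*, so leaving them out narrows its range. That can lower r by itself, so the values do not show whether the pair rests on those livers. Single livers also decided these calls. *Clock* did not pass without chow control 1, 3 or 4 or chow knockout 3, at r = 0.538, 0.5, 0.57 and 0.514, nor did *Per3*, at r = -0.432, -0.543, -0.565 and -0.532. *Cry1* did not pass without chow control 1 or 4 or chow knockout 1, at r = 0.49, 0.549 and 0.514.

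*Per2* (r = -0.491, permutation p = 0.054, adjusted p = 0.0695, rho = -0.379), *Nr1d1* (r = -0.257, p = 0.341, adjusted p = 0.384, rho = -0.162) and *Per1* (r = -0.092, p = 0.735, rho = -0.062) did not pass over the 16 livers. *Per2* passed without high-fat control 1, 2 or 3, at r = -0.618, -0.538 and -0.543. As residuals on log2 CPM of *Malat1* over all 16 livers it also passed, at r = -0.728 (permutation, adjusted p = 0.00254), and *Clock* did not, at r = 0.519 (adjusted p = 0.0517). *Per1*, which is known to respond to hormones and feeding as well as to the clock, did not pass in any of the fits that left out 1 liver, nor did *Nr1d1*.

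**Figure D3:**
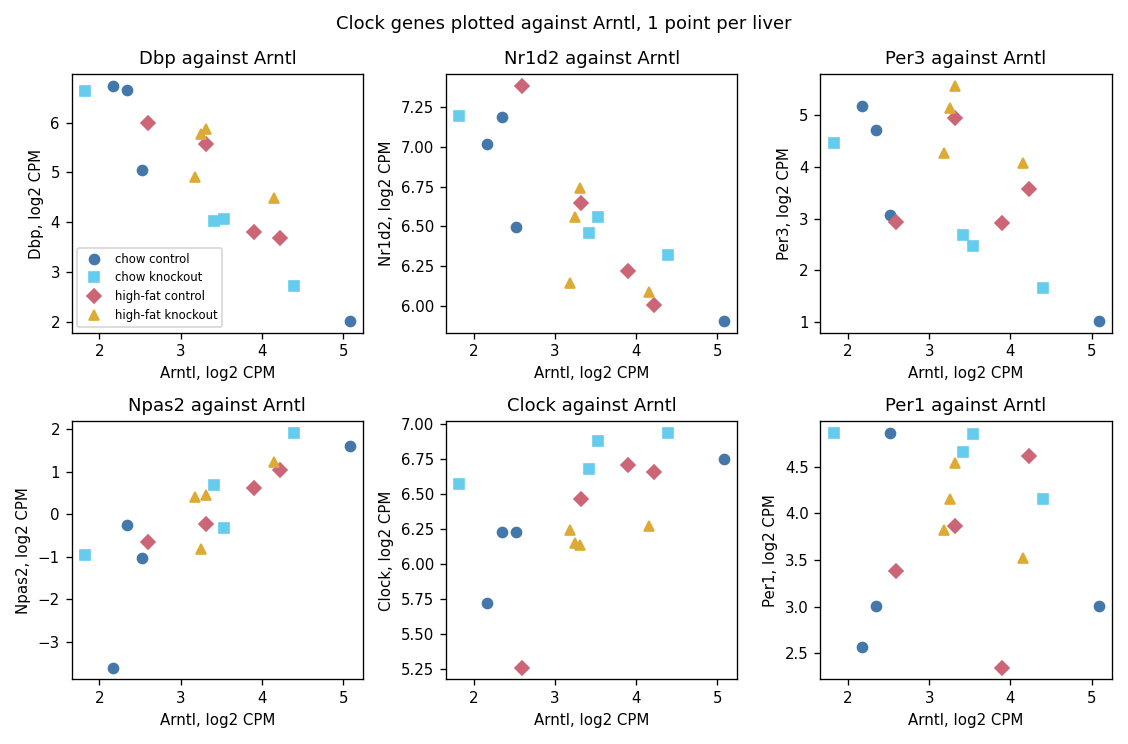
Log2 CPM of *Dbp*, *Nr1d2*, *Per3*, *Npas2*, *Clock* and *Per1* (vertical axes) against log2 CPM of *Arntl* (horizontal axes), 1 point per liver with the group as colour and shape. The points of *Dbp* fall along one descending band (r = -0.907) through all 4 groups, and those of *Per1* form no band (r = -0.092).

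The relations were also computed within each diet, by exact permutation over 8 livers. On chow, 5 of 9 passed: *Dbp* at r = -0.972, *Per3* at -0.936, *Per2* at -0.929 (adjusted p = 0.00318), *Nr1d2* at -0.915 and *Npas2* at 0.797. *Clock* was at 0.686 (exact permutation, adjusted p = 0.0849) and *Cry1* at 0.605 (adjusted p = 0.149). On the high-fat diet, 4 of 9 passed: *Dbp* at r = -0.852, *Nr1d2* at -0.847, *Npas2* at 0.833 and *Clock* at 0.794 (exact permutation, adjusted p = 0.0274 each). *Per3* was at -0.146 and *Per2* at 0.117 there (exact permutation, adjusted p = 0.967 each). The difference in r between the diets did not pass for either gene in a permutation test over 12870 assignments of livers, at -0.78 for *Per3* (p = 0.0274, adjusted p = 0.171) and -1.07 for *Per2* (p = 0.0381, adjusted p = 0.171). That test was added after the values within diets had been seen.

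With each group's mean removed, r with *Arntl* was -0.957 for *Dbp*, -0.857 for *Nr1d2*, 0.817 for *Npas2*, -0.781 for *Per3*, 0.707 for *Clock* and 0.695 for *Cry1*. Within the diets these centred values were -0.941 on chow and -0.162 on the high-fat diet for *Per3*, and -0.976 and -0.879 for *Dbp*. *Arntl* itself varied less on the high-fat diet. Its SD of log2 CPM was 0.714 in controls and 0.457 in knockouts there, against 1.377 and 1.072 on chow. A narrower range can lower r by itself, so these values do not show whether the pooled value of *Per3* rests on the chow livers. Among other pairs, described with no test, r was 0.916 for *Dbp* and *Nr1d2*, 0.888 for *Per2* and *Per3*, 0.882 for *Dbp* and *Per3* and -0.817 for *Clock* and *Nr1d2*. *Nr1d1* and *Dbp* stood at 0.448 and *Per1* and *Dbp* at 0.093. The values of one liver share a library and its scaling.

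The position of a liver along this common pattern can be read from log2 CPM of *Arntl* minus log2 CPM of *Dbp*. It was 3.07, -2.52, -4.57 and -4.31 in chow controls 1 to 4 and -4.82, -0.53, 1.68 and -0.61 in chow knockouts 1 to 4. High-fat controls 1 to 4 had 0.55, -2.25, -3.39 and 0.10, and high-fat knockouts 1 to 4 had -1.73, -0.33, -2.51 and -2.56. Chow control 1 stood with chow knockout 3 at the *Arntl*-high end and chow knockout 1 with chow controls 3 and 4 at the *Dbp*-high end. The group means were -2.08 ± 3.55, -1.07 ± 2.72, -1.25 ± 1.88 and -1.78 ± 1.04 (SD, n = 4 each), and the difference between the highest and the lowest liver of a group was 7.63, 6.50, 3.94 and 2.24 on the log2 scale.

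**Figure D4:**
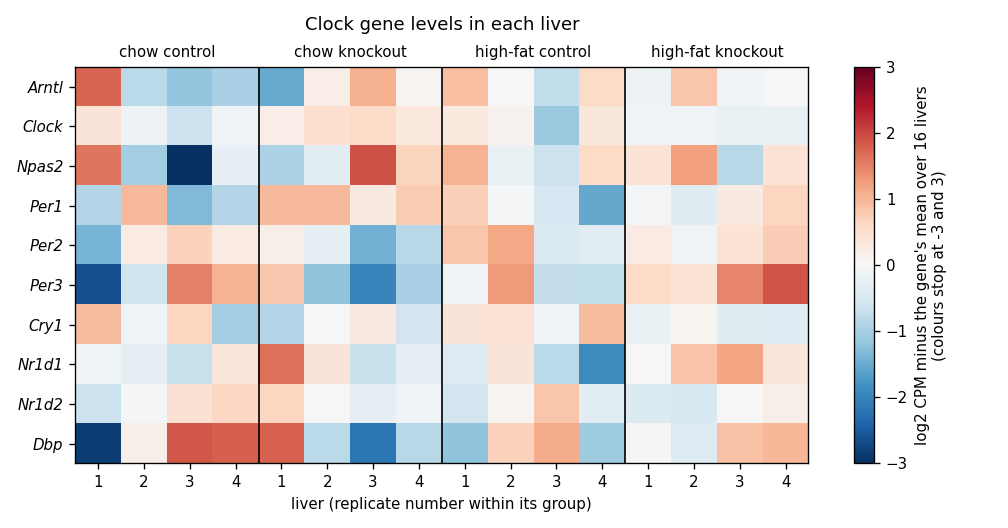
Log2 CPM of each clock gene (rows) in each of the 16 livers (columns, by group), as the difference from the gene's mean over all livers, with colours that stop at -3 and 3. Chow control 1 and chow knockout 3 show *Arntl* and *Npas2* above and *Dbp* and *Per3* below their means, and chow controls 3 and 4 and chow knockout 1 show the reverse.

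Knockout was first compared with control on chow, to see whether loss of *Degs1* went with another level of the clock genes. In edgeR's quasi-likelihood test, adjusted by Benjamini-Hochberg over all genes, 0 of 10 were called, against 0.0139% of the 14351 genes tested, and 1 of 10 had an unadjusted p below 0.05, against 9.52% of genes. DESeq2 and limma-voom also called 0. The gene with the low unadjusted p was *Per1*, with 12.7 ± 10.9 CPM in controls and 25.3 ± 5.26 CPM in knockouts (SD, n = 4) and a log2 fold change of 1.002 (adjusted p = 0.509 in edgeR, SE 0.46). Without chow control 2 its log2 fold change was 1.79 (edgeR adjusted p = 0.249). *Clock* was at 0.50 on the log2 scale (SE 0.24, adjusted p = 0.533 in edgeR), *Per3* at -1.01 (SE 0.70, adjusted p = 0.649) and *Dbp* at -0.83 (SE 0.81, adjusted p = 0.753). *Arntl* stood at -0.05 (SE 0.59, edgeR adjusted p = 0.988), and at 1.22 without chow control 1. None of the 10 was without overlap between the groups, against 6.34% of genes. The median log2 fold change was -0.06 for the 10 and -0.01 for all genes.

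On the high-fat diet, knockouts and controls were compared in the same way, and edgeR called 0 of 10, against 0.111% of genes. DESeq2 and limma-voom also called 0. The single clock gene with an unadjusted p below 0.05 (21.4% of all genes) was *Nr1d1*, with 27.5 ± 16.5 CPM in controls and 60.4 ± 21.6 CPM in knockouts (SD, n = 4). Its log2 fold change was 1.14 (SE 0.46, edgeR adjusted p = 0.173). High-fat control 2 lay between knockouts, and without it the log2 fold change was 1.58 (edgeR adjusted p = 0.084). *Per3* was at 1.04 (SE 0.68, edgeR adjusted p = 0.375) and *Cry1* at -0.66 (SE 0.34, adjusted p = 0.269). *Dbp* stood at 0.27 (SE 0.81, edgeR adjusted p = 0.863) and *Arntl* at -0.10 (SE 0.58, adjusted p = 0.931). None of the 10 was without overlap between the groups, against 13.2% of genes.

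The high-fat diet was then compared with chow within each genotype. In controls edgeR called 0 of 10 clock genes, against 1.83% of all genes, and none had an unadjusted p below 0.05, against 17.1%. DESeq2 and limma-voom also called 0. The lowest adjusted p belonged to *Dbp*, at -0.84 on the log2 scale (SE 0.81, edgeR adjusted p = 0.663), from 61.0 ± 50.6 CPM on chow and 34.4 ± 25.2 CPM on the high-fat diet (SD, n = 4). None was without overlap, against 7.23% of genes.

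In the knockouts edgeR called 0 of 10 clock genes between the diets, although it called 10.6% of all genes, and DESeq2 and limma-voom also called 0. An unadjusted p below 0.05 was found for 2 of 10 (28.8% of all genes). *Clock* had 109.3 ± 12.8 CPM on chow and 73.6 ± 3.40 CPM on the high-fat diet (SD, n = 4), a difference of -0.57 on the log2 scale (SE 0.24, edgeR adjusted p = 0.131). It was the 1 clock gene whose groups did not overlap, as was the case for 24.5% of all genes. *Per3* had 9.28 ± 8.62 and 29.5 ± 14.2 CPM, a difference of 1.70 (SE 0.70, edgeR adjusted p = 0.121). *Per2* was at 0.83 (SE 0.42, edgeR adjusted p = 0.198). Other settings changed these calls. Fitted on the 8 knockout livers alone, *Clock* passed at -0.56 (edgeR adjusted p = 0.00667) and *Per3* at 1.72 (adjusted p = 0.0403). Without high-fat control 3, *Clock* passed at -0.57 (edgeR adjusted p = 0.0211), and without chow knockout 1, *Per3* passed at 2.56 (edgeR adjusted p = 0.0385). *Malat1* stood at 689.6 to 1360 CPM in chow knockouts and 2949 to 3512 CPM in high-fat knockouts, and with its log2 CPM as a covariate *Clock* was at -1.14 (edgeR adjusted p = 0.0061) and *Per3* at 1.203 (adjusted p = 0.359).

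The test of the interaction, which asks whether the knockout difference itself changed with diet, called 0 of 10 in edgeR, against 0% of all genes, 11.3% of which had an unadjusted p below 0.05. None of the 10 did. DESeq2 called 0 of the clock genes and 83 of all genes, and limma-voom 0 of the clock genes. *Per3* came nearest, with an interaction of 2.05 on the log2 scale (SE 0.98, edgeR adjusted p = 0.443), and *Clock* had -0.67 (SE 0.34, adjusted p = 0.47).

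**Figure D5:**
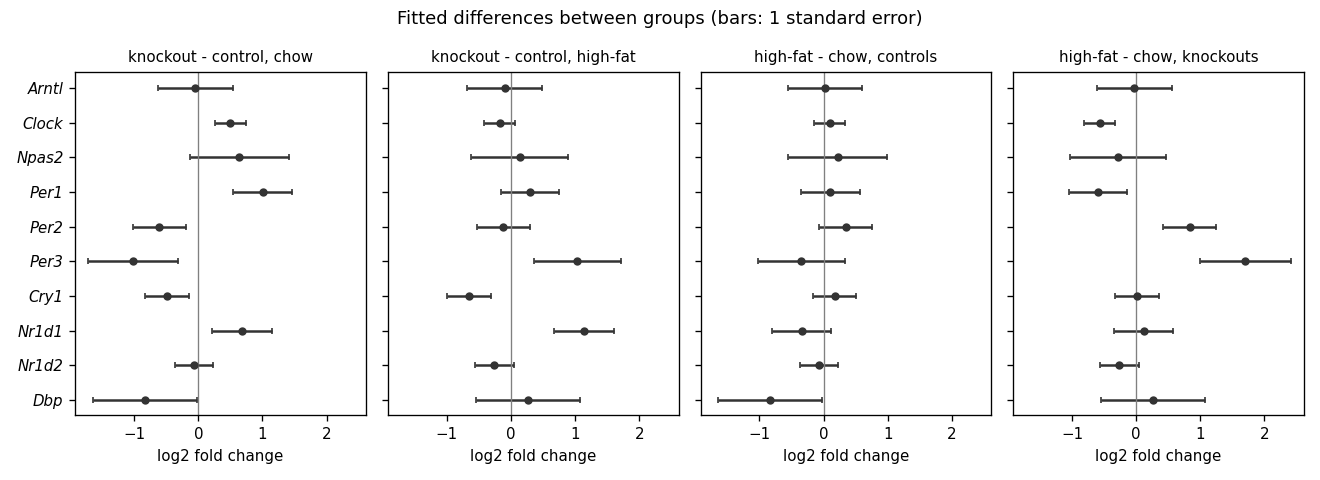
Fitted log2 fold changes of the clock genes (horizontal axes) with bars of 1 standard error, in the 4 comparisons between groups. The bars of *Dbp*, at 0.81, are the longest and those of *Clock*, at 0.24, the shortest.

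The comparisons share groups, so the 4 sets of values are not independent. With no filter on low counts the fold changes were close to these and edgeR called 4, 2, 1, 3 and 2 of the 10 in the 5 comparisons, against 0.851%, 2.66%, 2.74%, 5.23% and 0.715% of 36204 genes. A gene that missed the threshold is not shown to be alike in the groups.

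A list of 20 further clock components, holding repressors, kinases, ubiquitin ligase subunits and relatives of DBP, was counted in the same way. In edgeR 0 of 20 were called between genotypes on chow (0.0139% of all genes) or on the high-fat diet (0.111%), between diets in controls (1.83%) and in the interaction (0%). Between the diets in knockouts, where 10.6% of all genes were called, 1 of 20 was called, *Timeless*, which was higher. This gene encodes a DNA replication protein related to a fly clock gene, and it had 0.878, 1.60, 1.63 and 1.43 CPM on chow and 2.96, 2.57, 2.67 and 3.53 CPM on the high-fat diet. Its log2 fold change was 1.06 (SE 0.31, edgeR adjusted p = 0.0382) and the groups did not overlap, as was the case for 24.5% of all genes. On chow it was lower in knockouts than in controls, at -0.86 (edgeR adjusted p = 0.442), also without overlap (6.34% of all genes). In controls the high-fat diet went with a lower level, at -0.66 (edgeR adjusted p = 0.278).

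Several of these components followed the liver's position along the pattern. *Ciart*, a repressor of BMAL1 and CLOCK, ran from 0.0692 CPM (a single count) in chow control 1 to 11.1 CPM in chow knockout 1, the extreme livers of *Arntl*. With group means removed its r was -0.903 with *Arntl* and 0.91 with *Dbp*. *Tef*, a relative of DBP, ran from 40.7 to 242.5 CPM, with r = -0.856 and 0.922. *Bhlhe41*, another repressor, had r = -0.711 and 0.823, and *Nfil3*, which competes with DBP for D-boxes, had r = 0.652 and -0.597. The kinase gene *Csnk1a1* and the ligase subunit gene *Fbxw11* varied little, with a spread between livers at the 2.14 and 0.439 percentile of all genes tested. Within that narrow range, 31.4 to 42.7 CPM, *Fbxw11* still had r = 0.718 with *Arntl* and -0.72 with *Dbp*, and *Csnk1a1* had 0.034 and -0.051. These correlations over 16 livers are descriptions.

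Of 16 genes known as outputs of the liver clock, edgeR called 0 in each of the 5 comparisons, in which 0.0139%, 0.111%, 1.83%, 10.6% and 0% of all genes were called. *Wee1*, a cell cycle kinase, had r = -0.833 with *Arntl* and 0.914 with *Dbp* after removal of group means. *Usp2*, a ubiquitin protease, ran from 1.38 to 35.6 CPM with r = -0.856 and 0.885, and *Por*, the electron donor of the cytochromes P450, had -0.856 and 0.883. *Elovl3*, a fatty acid elongase, went the other way, at 0.865 and -0.883. *Nampt*, the enzyme of NAD salvage, had -0.723 and 0.73. *Noct*, a deadenylase-like protein with a strong rhythm in liver, followed neither, at 0.077 and -0.232. Between diets in knockouts *Elovl3* had a log2 fold change of -1.41 (edgeR adjusted p = 0.0699) and *Noct* one of -1.38 (adjusted p = 0.0797).

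Genes that respond to glucocorticoids and to body temperature, which both carry time of day to the liver, were read as well. For knockout on either diet, diet in controls and the interaction edgeR called 0 of 10 and 0 of 7, with 0.0139%, 0.111%, 1.83% and 0% of all genes called. Between diets in knockouts, where 10.6% of all genes were called, 2 of 10 and 1 of 7 were called. *Tat*, a tyrosine-degrading enzyme, fell by 1.41 on the log2 scale (edgeR adjusted p = 0.0112), and *Lcn2*, which inflammation also induces, rose by 3.90 (adjusted p = 0.00749). *Hspa1b*, a heat shock chaperone, fell by 2.39 (edgeR adjusted p = 0.0101), and the median of the 7 temperature genes was -0.69 against 0.02 over all genes. Of the 7, 2 were positive, *Cirbp* at 0.46 (edgeR adjusted p = 0.162) and *Rbm3* at 0.22 (adjusted p = 0.436). The list was not sorted by the direction in which temperature moves each gene, so its median stands for no single response. Summed over the 7, chow knockout 2 had 508 CPM, against 161.5 to 302.9 CPM in the other chow knockouts. In the same comparison, hepatocyte markers summed to 116300 to 138000 CPM on chow and 57210 to 78500 CPM on the high-fat diet. All 7 had a negative log2 fold change, and 2 were called, *Alb* and *Fgb*. Positive log2 fold changes were found for 5 of 8 Kupffer cell and macrophage markers and 4 of 6 stellate cell markers. All 4 lymphocyte and neutrophil markers tested were positive too. In each of these 3 lists 1 gene was called, and it was higher. Endothelial cell markers were positive for 3 of 6 and cholangiocyte markers for 4 of 5, with 0 called in either list. The part of cell types in the values of *Clock* and *Per3* was not tested.

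Among 9502 genes whose log2 CPM averaged 2 or more, those most like *Arntl* from liver to liver, with group means removed, were *Rfxank* (r = 0.938), *Chka* (0.923), *Grk5* (0.9), *Clpx* (0.891), *Dtx4* (0.887) and *Leprotl1* (0.868). Those most opposed were *Dis3l* (-0.902), *Mtmr9* (-0.873), *Coq10b* (-0.866), *Dglucy* (-0.86), *Slc31a1* (-0.86) and *Cers2* (-0.859). For *Dbp* the likest were *Mtmr9* (0.925), *Tef* (0.922), *Dglucy* (0.915), *Wee1* (0.914), *Gys2* (0.909) and *Upp2* (0.904). The most opposed were *Dtx4* (-0.936), *Clpx* (-0.931), *Rfxank* (-0.929), *Chka* (-0.911), *Leprotl1* (-0.895) and *Elovl3* (-0.883). *Rfxank*, *Chka*, *Clpx*, *Dtx4* and *Leprotl1* thus stood at the *Arntl* end for both genes, and *Mtmr9* and *Dglucy* at the *Dbp* end. *Arntl* and *Dbp* were themselves at r = -0.957, so that the lists for them are not independent and their sharing of genes adds no support. *Chka* encodes choline kinase, *Gys2* the liver glycogen synthase, and *Cers2* the ceramide synthase that makes very long chain ceramides. *Cers2* ranged from 223.1 to 382.2 CPM.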

How the data were processed

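Libraries of mouse liver total RNA were made with a stranded Illumina kit after ribosomal RNA depletion, per the labels' protocols. The table deposited by the authors holds raw read counts per Ensembl gene, and all columns matched a sample, with 0 left unmapped. The submitters' processing notes name the build GRCm38 and, without their roles, STAR 2.5.4a, featureCounts 1.5.1 and DESeq2. No strand setting or annotation release is given in the sources used here.

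Every liver has an animal number of its own in the labels and was taken as 1 animal. No pair of livers of one group (24 pairs) agreed within sampling noise, with chi-square over degrees of freedom from 12.3 to 125.6. Genes passing filterByExpr (minimum count 10), 14351 in all, were scaled by TMM and fitted with edgeR 4.0.16 in R 4.3.3, with 1 term for each of the 4 groups over 16 livers. Quasi-likelihood F tests were adjusted by Benjamini-Hochberg over all genes, with a threshold of 0.05. Correlations used log2 CPM with a prior count of 0.5 and two-sided permutation tests. Exact tests over all orders were used within diets. The tests take the spread from the livers, of which counting error is a part.

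Positions come from GENCODE and promoter windows from RefSeq, both on GRCm38. The text names all 10 clock genes, up to 4 members of other lists with the smallest p in a comparison, and the 6 genes most like and most opposed to *Arntl* and to *Dbp*. List members named for their correlation or spread (*Ciart*, *Tef*, *Bhlhe41*, *Nfil3*, *Wee1*, *Usp2*, *Por*, *Nampt*, *Csnk1a1*, *Fbxw11*) were chosen after their values were seen. The clock genes and lists were chosen with earlier results of these data known. Alternatives were DESeq2 1.42.0, limma-voom (limma 3.58.1), other scaling factors, no filter, only the groups compared, *Malat1* as a covariate, and livers left out.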

Additional observations from a re-analysis of the deposited data

Results flagged for a closer look

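In 4 of the 40 combinations of clock gene and group, 1 liver lay far from the other 3, with a gap to the nearest that was a larger share of the group's range than Dixon's 95% critical value for 4 samples. The ratio was taken on CPM. Chance alone gives about 1 in 20 for normally distributed values, which CPM need not be. On log2 CPM, computed after seeing the data, 3 of 40 passed: *Arntl* in chow control 1 and in high-fat knockout 2, and *Clock* in high-fat control 3. *Per1* in chow control 2 and *Dbp* in chow knockout 1 did not, at ratios of 0.808 and 0.657. *Arntl* was at 33.89 CPM in chow control 1 and at 4.47 to 5.71 CPM in the other chow controls, and at 17.79 CPM in high-fat knockout 2 and 9.05 to 9.92 CPM in the other high-fat knockouts. *Per1* was at 29.01 CPM in chow control 2 and at 5.91 to 8.02 CPM in the others. *Dbp* was at 99.88 CPM in chow knockout 1 and at 6.52 to 16.6 CPM in the other chow knockouts. Chow control 1 also had the lowest *Dbp* of the 16 livers, and chow knockout 1 the lowest *Arntl*.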

How the results depend on the processing

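No paired analysis was possible because the labels give each liver an animal number of its own and no number shared between groups. The counts of clock genes called were the same, 0, in all 5 comparisons with DESeq2, limma-voom, RLE factors and upperquartile factors. With no filter on low counts, which tested 36204 genes, edgeR called 4 between genotypes on chow (*Per1*, *Per3*, *Nr1d1* and *Dbp*), 2 on the high-fat diet (*Per3* and *Nr1d1*), 1 between diets in controls (*Dbp*), 3 in knockouts (*Clock*, *Per2* and *Per3*) and 2 in the interaction (*Per3* and *Dbp*). Between diets in knockouts 2 were called with only the groups compared or without high-fat control 3 and chow knockout 1 (*Clock* and *Per3* each time), 1 with *Malat1* as a covariate (*Clock*), and 0 to 1 with each liver left out. For the other comparisons leaving out each liver gave 0. For these changes the cause was not tested.

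*Arntl* between genotypes on chow changed sign, from -0.05 to 0.43 on the log2 scale with limma-voom and 0.27 without high-fat control 3 and chow knockout 1, and ran from -0.49 (without chow knockout 3) to 1.22 (without chow control 1) with each liver left out. On the high-fat diet the same ranges were -0.38 to 0.16 for *Arntl* and -0.017 to 0.75 for *Dbp*. None of these values passed. Of the correlations with *Arntl*, 6 passed over all livers and 3 to 7 with each liver left out. That of *Per2* was 0.117 in high-fat livers alone, and that of *Per1* was 0.26 without the 2 livers farthest from the *Arntl* median and -0.279 to 0.067 with each liver left out.

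Genes called over all genes tested, against 2, 16, 262, 1516 and 0 in the order of comparisons above, were 50, 633, 794, 2269 and 83 with DESeq2 and 308, 964, 992, 1895 and 259 with no filter. Between genotypes on the high-fat diet they were 34 with upperquartile factors and 31 with limma-voom. With only the groups compared they were 1, 1, 75 and 2793. Between diets in controls they were 1219 without high-fat control 3 and chow knockout 1 and 1770 with *Malat1* as a covariate, and in knockouts 3273 without those livers. With each liver left out the ranges were 0 to 4, 3 to 31, 100 to 955, 465 to 2914 and 0 to 1, the highest values of both diet comparisons without high-fat control 3.

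Depth bears most on *Npas2*, with 1 to 62 counts per liver. At its mean of 22.1 counts, counting error alone gives an SD of 0.307 on the log2 scale, where 1.38 was measured. That error is larger in livers with fewer counts, and its share of the 1.38 was not computed.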

Other observations

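With the difference between *Arntl* and *Dbp* in each liver as a covariate over all genes, added after seeing the data, edgeR called 2 genes between genotypes on chow and 44 on the high-fat diet, 239 between diets in controls and 1811 in knockouts, and 0 in the interaction. Without it the numbers were 2, 16, 262, 1516 and 0, and 2, 16, 209, 1475 and 0 genes were shared. Leaving out *Arntl* and *Dbp*, which make up the covariate, its coefficient passed for 23 of 14349 genes, 10 higher in livers toward the *Arntl* end and 13 higher toward the *Dbp* end. For knockout on chow both genes called were kept: *Degs1* at -1.13 (edgeR adjusted p = 0.038 with the covariate and 0.0123 without) and *Srebf1*, a regulator of fatty acid synthesis, at -1.58 (adjusted p = 0.038 and 0.0123). With group means removed, *Cers2* had r = -0.859 with *Arntl* and 0.859 with *Dbp*, *Srebf1* -0.36 and 0.316, and *Degs1* -0.309 and 0.174. *Cers2* was picked above for its r with *Arntl*, and the other genes were not. These correlations over 16 livers are descriptions.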
